A study of Bos taurus with 10 samples.

Results

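Amino acids enter and leave cells through solute carriers in the plasma membrane, and 10 of these carriers were listed for the comparison of mammary tissue near an infected gland with tissue of healthy cows. The listed genes were SLC3A2, SLC7A5, SLC7A8, SLC7A1, SLC7A11, SLC1A4, SLC1A5, SLC38A2, SLC1A1 and SLC6A14. Members were all probe sets whose only gene symbol in the platform annotation was a listed gene, a rule that used no measured value. The listed genes themselves, and the gene lists used further on, were chosen with earlier results of these data known. Counts set beside shares of all probe sets are therefore a description only. The rule found 10 probe sets of 8 genes among 24016 probe sets on the array, with SLC1A4 and SLC38A2 represented by a pair of probe sets each. SLC7A8 and SLC7A11 had no probe set under that rule and were not analysed here.

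The neighboring group came from 5 cows that had received 500 CFU of Escherichia coli 1303, a strain from bovine mastitis, suspended in 2 ml of saline, into another gland of the same udder. Tissue was taken after 24 h from glands without bacteria, as a pool of a saline-treated and an untreated gland, but neighboring 4 was 1 untreated gland alone. The healthy group came from 5 cows without any inoculation, of which healthy 3 and healthy 5 were single glands and the others pools. All 10 animals were German Holstein Frisian cows in mid-lactation of their first calving, free of earlier clinical mastitis, with synchronised oestrus and milked out with oxytocin. Values were RMA log2 values, made by background correction, normalization to a shared distribution and a summary over the short probes of a set, so a probe set's level has meaning only against its own level on other arrays. The tissue was a mixture of cells, and fewer cells of a type and less RNA per cell cannot be told apart.

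Following the study's methods, array neighboring 5 (a biological outlier) and array healthy 3 (a technical outlier) were shown but left out of the 8-array comparison. Neighboring 5 stood apart from its label, since its mean correlation over all probe sets was 0.981 with the other neighboring arrays and 0.989 with the healthy arrays. Over the probe sets that changed on the 8 arrays, its median shift in the direction of the change was 0.089 on the log2 scale. On neighboring 1 to 4 that shift was 0.46 to 0.58. Those 4 arrays took part in calling these probe sets, so large shifts there were built in. Neighboring 5 and healthy 3 (0.097) took no part in that call, and the contrast is a description only. Array medians lay between 6.25 and 6.27. Mean values of the 18 hybridization control probe sets, which report spiked transcripts and not tissue RNA, were 10.20 to 10.43 on neighboring 1 to 4 and 10.42 to 10.84 on healthy 1, 2, 4 and 5. They moved with the groups, and their part in the results was not tested beyond a fit that took them as a covariate. That fit is named the spike-adjusted fit here. Its values stand beside each carrier or pathway gene named whose call it ended, apart from SLC6A20 and SLC6A9, for which it is not given. Rose and fell below mean an adjusted p under 0.05 in limma, over all probe sets tested.

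Milk protein synthesis draws on a large uptake of amino acids by the secretory epithelium. Carriers divide into sodium-coupled ones, which accumulate amino acids in the cell, and exchangers, which trade one amino acid for another. SLC3A2, also named CD98 heavy chain or 4F2hc, carries no amino acid itself but brings light chains such as SLC7A5, SLC7A8 and SLC7A11 to the cell surface. Several of these genes are transcribed more when amino acids run short, through the transcription factor ATF4.

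In neighboring glands the heavy chain SLC3A2, the exchanger SLC1A4 and the dim probe sets of SLC1A1 and SLC6A14 rose, while the light chain SLC7A5, SLC7A1, SLC1A5 and the bright SLC38A2 probe set did not pass the test. Of the 10 member probe sets, 7 were above the filter on low values, which left out the lowest 40% of probe sets (a mean over 10 arrays of up to 5.71) and kept 14409. Of these 7, 3 rose, 0 fell and 4 did not pass, with a median change of 0.25 on the log2 scale, against a median of 0.025 over all probe sets tested. Over all 14409, 17.7% rose and 12% fell. At an unadjusted p under 0.05, 3 members were higher and 0 lower. The share of all probe sets at that threshold was not counted, so these counts cannot be set against it. The 3 that rose were SLC3A2 and both SLC1A4 probe sets, which are 2 genes, and the same 3 did not overlap between the groups on the 8 arrays, as was true of 18.4% of all probe sets. At an adjusted p under 0.01 with a change over 2-fold, SLC3A2 was the 1 member called, against 1.71% of all probe sets. With all 10 arrays 1 of the 7 rose, SLC3A2, with 7.16% of all probe sets, and 0 members were free of overlap, against 3.8%.

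The other 3 member probe sets, SLC1A1, SLC6A14 and the second one of SLC38A2, lay under the filter and were fitted with all 24016 probe sets. In that fit 6 of 10 members rose and 0 fell, with 11.1% of all probe sets rising, and the median change was 0.59 over the members and -0.044 over all probe sets. The groups did not overlap in 5 of the 10, against 12.7% of all probe sets, and SLC3A2 and SLC6A14 met the stricter rule, against 1.15%. With all 10 arrays 2 of 10 rose (SLC3A2 and SLC1A1), against 3.86%.

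**Figure D1:**
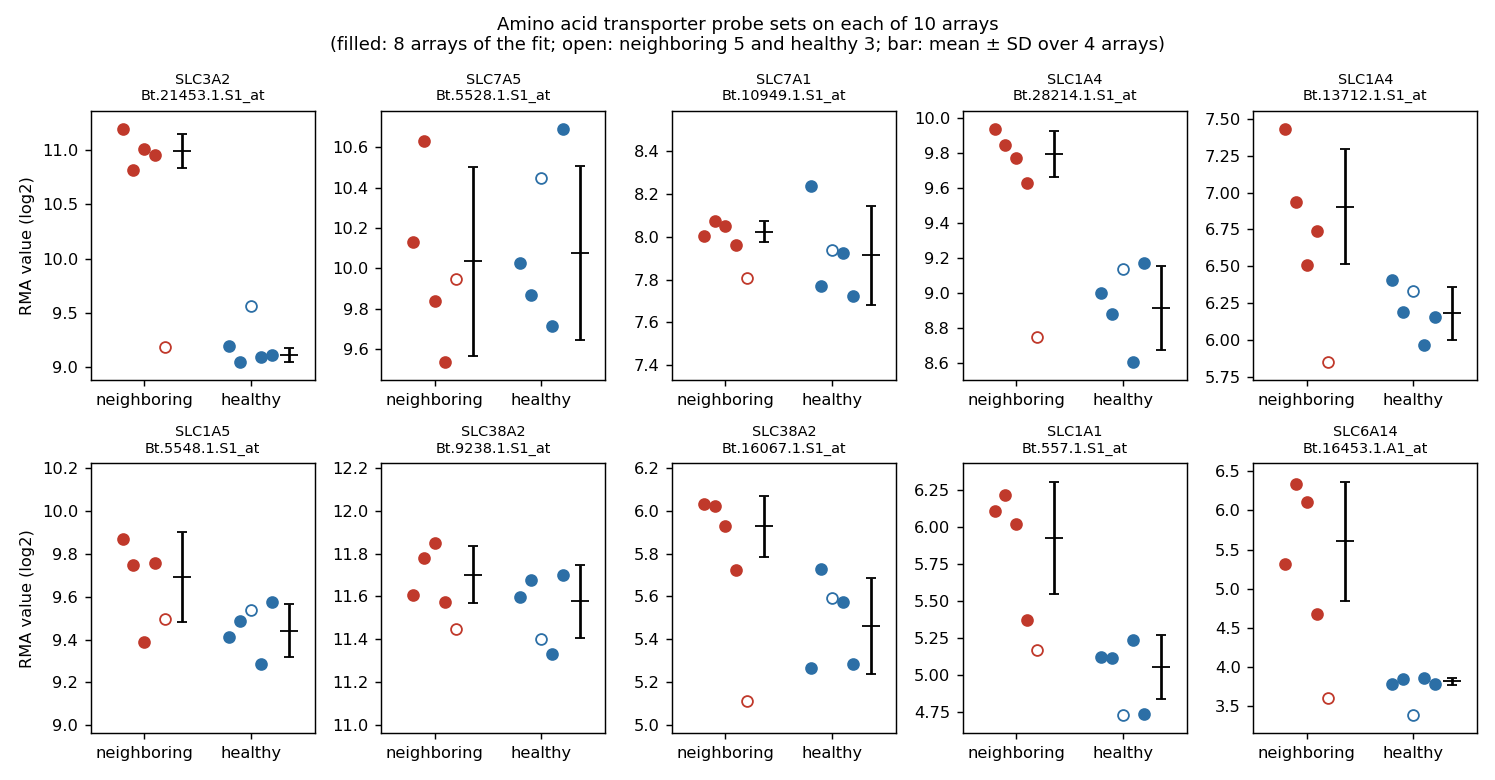
RMA value (log2, y axis) of each of the 10 member probe sets on the 5 neighboring arrays (left, red) and the 5 healthy arrays (right, blue), in the order of replicates 1 to 5. Open circles are neighboring 5 and healthy 3, and black bars give mean ± SD over the other 4 arrays of a group. SLC3A2 lies at 10.82 or above on neighboring 1 to 4 and at 9.56 or below on every other array.

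Among members above the filter on the 8 arrays, the heavy chain had the largest change. SLC6A14, under the filter, was not ranked below it, since with all 10 arrays its change was 1.48, against 1.43 for SLC3A2. SLC3A2 (probe set Bt.21453.1.S1_at) had values of 11.20, 10.82, 11.01, 10.95 and 9.19 on neighboring 1 to 5, against 9.19, 9.05, 9.56, 9.09 and 9.11 on healthy 1 to 5. The 4 neighboring arrays of the comparison lay close together and above every healthy array, while neighboring 5 lay among the healthy arrays. SLC3A2 averaged 10.99 ± 0.16 in neighboring glands and 9.11 ± 0.06 in healthy glands (SD, n = 4 each), a rise of 1.88 ± 0.10 (SE) on the log2 scale, or 3.69-fold (adjusted p = 5.60e-06, limma). The rise was 1.43 ± 0.32 with all 10 arrays (adjusted p = 0.0263) and 1.84 in the spike-adjusted fit (adjusted p = 0.00551).

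SLC7A5, or LAT1, is the light chain that exchanges large neutral amino acids such as leucine for glutamine. Its probe set (Bt.5528.1.S1_at) had values of 10.13, 10.63, 9.84, 9.54 and 9.95 on neighboring 1 to 5, against 10.02, 9.87, 10.45, 9.71 and 10.69 on healthy 1 to 5. The groups overlapped over most of their range, with the highest value on healthy 5 and the lowest on neighboring 4. SLC7A5 averaged 10.03 ± 0.47 in neighboring glands and 10.08 ± 0.43 in healthy glands (SD, n = 4 each), a difference of -0.041 on the log2 scale with a 95% interval of -0.60 to 0.52 (adjusted p = 0.916, limma). An interval of that width leaves room for a change of either sign, and the sign turned in several alternative fits.

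On the neighboring arrays the rise of the heavy chain had no counterpart of like size in the light chain. Relative to the mean of the 4 healthy arrays, SLC3A2 was higher by 2.09, 1.71, 1.90 and 1.84 on neighboring 1 to 4, on the log2 scale. On the same arrays SLC7A5 differed from its own healthy mean by 0.055, 0.56, -0.24 and -0.54. The neighboring array lowest in SLC3A2 of these 4, neighboring 2, was the highest in SLC7A5. The change of SLC3A2 exceeded that of SLC7A5 by 1.92, a pair singled out after its values were seen and given without a test. On neighboring 5 the shifts were 0.076 for SLC3A2 and -0.13 for SLC7A5.

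**Figure D2:**
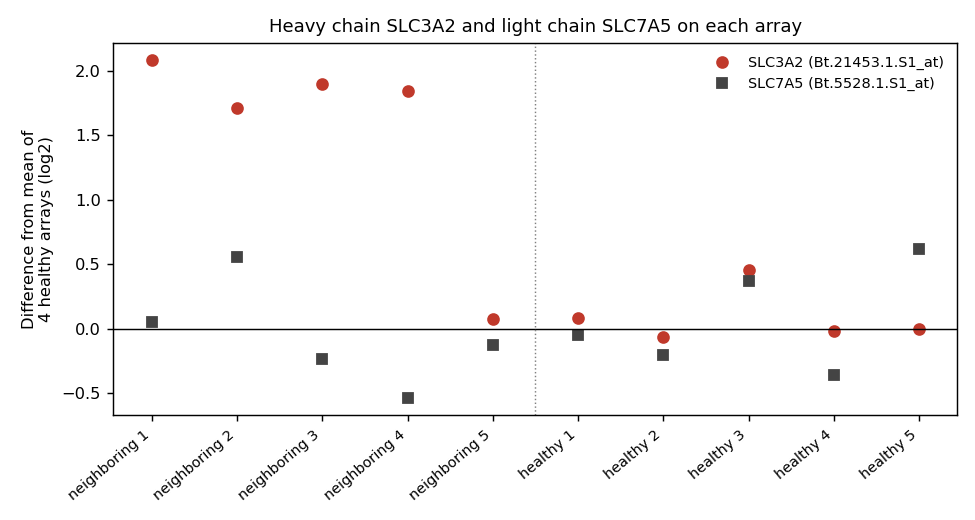
Difference from the mean of healthy 1, 2, 4 and 5 (log2, y axis) on each of the 10 arrays (x axis, neighboring left of the dotted line, healthy right) for SLC3A2 (red circles) and SLC7A5 (grey squares). SLC3A2 stands 1.71 to 2.09 above the healthy mean on neighboring 1 to 4, where SLC7A5 ranges from -0.54 to 0.56.

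SLC7A1, or CAT1, carries arginine, lysine and ornithine and needs no heavy chain. Its probe set (Bt.10949.1.S1_at) had values of 8.0, 8.07, 8.05, 7.96 and 7.81 on neighboring 1 to 5, against 8.24, 7.77, 7.94, 7.92 and 7.73 on healthy 1 to 5. The neighboring arrays lay inside the healthy range. The means were 8.02 ± 0.05 in neighboring glands and 7.91 ± 0.23 in healthy glands (SD, n = 4 each), a difference of 0.11 with a 95% interval of -0.16 to 0.37 (adjusted p = 0.508, limma).

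SLC1A4 and SLC1A5, or ASCT1 and ASCT2, are sodium-dependent exchangers of small neutral amino acids. SLC1A4 takes alanine, serine, cysteine and threonine, and SLC1A5 also takes glutamine. The brighter SLC1A4 probe set (Bt.28214.1.S1_at) had values of 9.94, 9.85, 9.77, 9.63 and 8.75 on neighboring 1 to 5, against 9.0, 8.88, 9.14, 8.61 and 9.17 on healthy 1 to 5. As with SLC3A2, neighboring 1 to 4 lay above every healthy array and neighboring 5 among them. It averaged 9.80 ± 0.13 in neighboring glands and 8.92 ± 0.24 in healthy glands (SD, n = 4 each), a rise of 0.88 ± 0.13 (SE) or 1.84-fold (adjusted p = 0.00124, limma). With all 10 arrays the change was 0.63 ± 0.21 and did not pass (adjusted p = 0.0650), and with neighboring 5 alone put back it was 0.67 (adjusted p = 0.0755).

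The dimmer SLC1A4 probe set (Bt.13712.1.S1_at) moved the same way. Its values were 7.43, 6.94, 6.51, 6.74 and 5.85 on neighboring 1 to 5, against 6.41, 6.19, 6.33, 5.97 and 6.16 on healthy 1 to 5. Neighboring 1 to 4 again lay above the healthy arrays, neighboring 3 by the smallest margin, and neighboring 5 was the lowest of the 10. The rise was 0.72 ± 0.18 (SE) on the log2 scale, or 1.65-fold, between means of 6.90 ± 0.39 in neighboring glands and 6.18 ± 0.18 in healthy glands (SD, n = 4 each, adjusted p = 0.0147, limma). It was 0.48 with all 10 arrays (adjusted p = 0.170), and it did not pass with neighboring 5 alone put back (adjusted p = 0.186) or in the spike-adjusted fit (0.92, adjusted p = 0.157).

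SLC1A5 (Bt.5548.1.S1_at) had values of 9.87, 9.75, 9.39, 9.76 and 9.50 on neighboring 1 to 5, against 9.41, 9.49, 9.54, 9.29 and 9.58 on healthy 1 to 5. Neighboring 1, 2 and 4 lay above the healthy arrays and neighboring 3 within them. The means were 9.69 ± 0.21 in neighboring glands and 9.44 ± 0.12 in healthy glands (SD, n = 4 each), a difference of 0.25 with a 95% interval of -0.02 to 0.52 that did not pass (adjusted p = 0.143, limma). Without neighboring 3 the difference was 0.35 and passed (adjusted p = 0.0478).

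SLC38A2, or SNAT2, accumulates small neutral amino acids with sodium and is known for its induction when cells lack amino acids. Its bright probe set (Bt.9238.1.S1_at) had values of 11.60, 11.78, 11.85, 11.57 and 11.45 on neighboring 1 to 5, against 11.60, 11.68, 11.40, 11.33 and 11.70 on healthy 1 to 5. The groups overlapped, with a difference of 0.13 and a 95% interval of -0.13 to 0.38 between means of 11.70 ± 0.13 in neighboring glands and 11.58 ± 0.17 in healthy glands (SD, n = 4 each, adjusted p = 0.420, limma). The dim probe set (Bt.16067.1.S1_at) gave a different call. It had values of 6.03, 6.02, 5.93, 5.73 and 5.11 on neighboring 1 to 5, against 5.26, 5.73, 5.59, 5.57 and 5.29 on healthy 1 to 5, so that neighboring 4 met the highest healthy array. Without the filter it rose by 0.47 ± 0.13 (SE) on the log2 scale (adjusted p = 0.0278, limma). That call was lost when neighboring 1, 2 or 3 or healthy 1 or 5 was left out (adjusted p = 0.0592 to 0.0728), with all 10 arrays (0.28, adjusted p = 0.309), with the replicate number as a block (adjusted p = 0.170) and in the spike-adjusted fit (adjusted p = 0.747). The replicate block joins same-numbered arrays of the groups, which are different cows. With it 850 of all probe sets above the filter rose, against 2548 without it. The probe sets of SLC38A2 disagreed on whether the gene rose.

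SLC1A1, or EAAT3, takes up glutamate, aspartate and cysteine with sodium. Its probe set (Bt.557.1.S1_at), dim and under the filter, had values of 6.10, 6.21, 6.02, 5.37 and 5.17 on neighboring 1 to 5, against 5.12, 5.11, 4.73, 5.24 and 4.74 on healthy 1 to 5. Neighboring 1 to 3 stood well above the healthy arrays, neighboring 4 only just, and neighboring 5 among them. Without the filter it rose by 0.88 ± 0.18 (SE) or 1.83-fold, between means of 5.93 ± 0.38 in neighboring glands and 5.05 ± 0.22 in healthy glands (SD, n = 4 each, adjusted p = 0.00766, limma). It passed with all 10 arrays (0.79 ± 0.20, adjusted p = 0.0414), and not with neighboring 5 alone put back (adjusted p = 0.0704), with the replicate number as a block (adjusted p = 0.0812) or in the spike-adjusted fit (0.50, adjusted p = 0.472).

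SLC6A14, or ATB0,+, is driven by sodium and chloride and accepts neutral and cationic amino acids alike. Its probe set (Bt.16453.1.A1_at) lay far under the filter, with values of 5.32, 6.34, 6.10, 4.68 and 3.61 on neighboring 1 to 5, against 3.78, 3.85, 3.39, 3.86 and 3.78 on healthy 1 to 5. The healthy arrays were tight and low, and neighboring 1 to 4 lay above them but differed widely among themselves. Means were 5.61 ± 0.76 in neighboring glands and 3.82 ± 0.04 in healthy glands (SD, n = 4 each), a rise of 1.79 ± 0.29 (SE) or 3.46-fold without the filter (adjusted p = 0.00236, limma). The change was 1.48 ± 0.41 with all 10 arrays (adjusted p = 0.0501) and 1.48 in the spike-adjusted fit (adjusted p = 0.201), neither of which passed. RMA compresses differences at low intensity, so the size of this fold is uncertain.

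**Figure D3:**
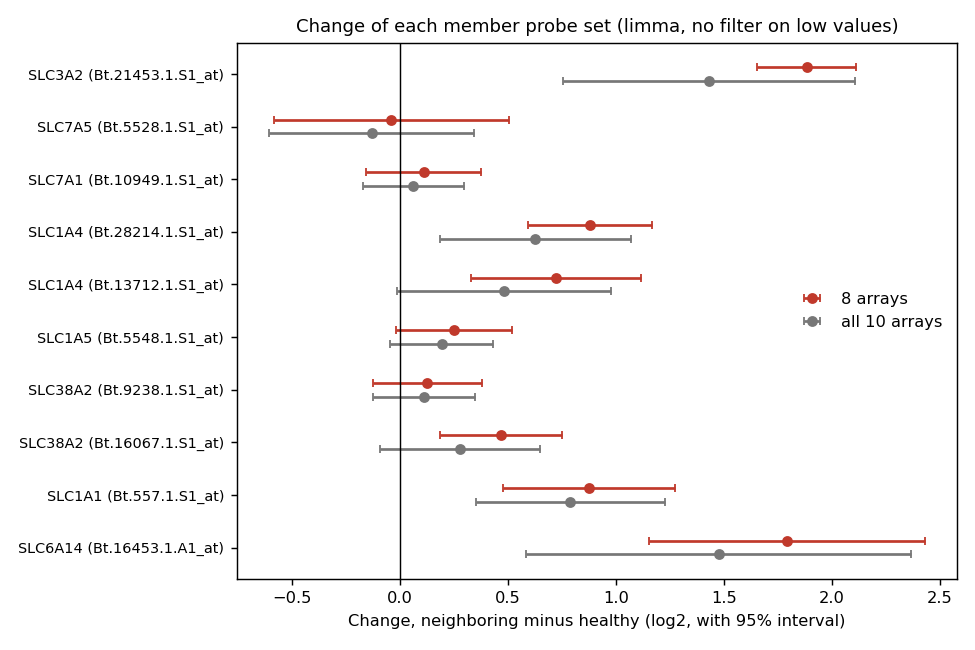
Change of each member probe set, neighboring minus healthy (log2, x axis), with its 95% interval from limma without the filter, on 8 arrays (red) and on all 10 (grey). Intervals of SLC7A5, SLC7A1, SLC1A5 and the bright SLC38A2 probe set include 0 in both fits, and every estimate but that of SLC7A5 is positive.

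The neighboring arrays were not alike across the members. Of the 6 probe sets that rose on the 8 arrays without the filter, neighboring 5 lay within the range of the 5 healthy arrays in 4, below it in 2 and above it in 0. Among neighboring 1 to 4, neighboring 4, the single gland without saline, had the lowest value in 4 of these 6 and in 7 of all 10 members. Neighboring 1 had the highest in 4 of the 6. Without neighboring 4 the change of SLC6A14 was 2.10 and that of SLC1A1 was 1.06, and both passed. As 1 array stood for tissue without saline, saline and the animal cannot be told apart.

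Among members that share a family, a heavy chain or a substrate, changes were compared directly in 3 of 6 intended pairs. The other 3 involved SLC7A8 or SLC7A11. The change of SLC1A4 exceeded that of SLC1A5 by 0.63 on the log2 scale, with a 95% interval of 0.32 to 0.94. Their per-array difference did not overlap between the groups (two-sided exact permutation test over arrays, p = 0.0286, the smallest this design allows, 0.0857 after Benjamini-Hochberg over the 3 pairs), and with all 10 arrays it was 0.43 (exact permutation p = 0.0714, adjusted 0.214). This pair therefore missed the threshold after adjustment. SLC1A4 and SLC1A1, relatives that both take cysteine but otherwise differ in substrates, differed in change by 0.004 with an interval of -0.63 to 0.64 (exact permutation p = 1). SLC38A2 and SLC1A5, which share glutamine as a substrate, differed by -0.12 with an interval of -0.53 to 0.28 (exact permutation p = 0.429, adjusted 0.643).

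Profiles most like SLC3A2 were sought among 9142 probe sets with a symbol that passed the filter, by the mean absolute difference over 10 arrays after centring on the mean of the healthy arrays. The nearest were MPZL3, a membrane protein of the myelin zero family, at 0.166, HSP90AB1, a cytosolic heat shock protein, at 0.169 and GARS1, the glycyl-tRNA synthetase, at 0.170. GARS1 had values of 12.07, 11.68, 11.59, 11.53 and 10.14 on neighboring 1 to 5, against 9.83, 9.50, 10.14, 9.44 and 9.90 on healthy 1 to 5, and so it too set neighboring 1 to 4 apart from the other arrays. These genes were picked for their likeness and are given as a description.

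Among other amino acid carriers of the plasma membrane, those that passed the filter gave no rise. Of 30 further genes, 12 were on the array and 4 passed the filter, of which 0 rose, 2 fell and 2 did not pass, with a median change of -0.19, where 17.7% of all probe sets rose and 12% fell. Of these 4, 1 fell with all 10 arrays, where 774 of 14409 probe sets fell. SLC38A3, or SNAT3, which carries glutamine, histidine and asparagine, had values of 7.74, 7.17, 6.85, 6.80 and 8.02 on neighboring 1 to 5, against 8.01, 8.01, 8.48, 8.27 and 8.39 on healthy 1 to 5. Neighboring 1 to 4 lay below every healthy array, and it fell by 1.03 ± 0.20 (SE) on the log2 scale (adjusted p = 0.00418, limma). It did not pass with neighboring 5 alone put back (adjusted p = 0.0514), with the replicate number as a block (adjusted p = 0.0616) or in the spike-adjusted fit (adjusted p = 0.0980). SLC43A1, or LAT3, a facilitated carrier of large neutral amino acids, fell by 0.31 ± 0.09 (adjusted p = 0.0235), a call lost when any of 5 arrays was left out, among them neighboring 2 (adjusted p = 0.0551), with all 10 arrays (adjusted p = 0.0995), with the replicate block (adjusted p = 0.155) and in the spike-adjusted fit (adjusted p = 0.372). SLC43A2, or LAT4, differed by -0.064 and SLC7A7, the light chain y+LAT1, by 0.028. Without the filter 2 of the 12 rose and 2 fell, with 11.1% of all probe sets rising. The risers lay under the filter: SLC6A20, a proline carrier (0.95, adjusted p = 0.00526, limma), and SLC6A9, a glycine carrier (1.03, adjusted p = 0.0142, limma). SLC6A9 ran from 5.23 to 6.54 on neighboring 1 to 4. On neighboring 5 both lay within the healthy range, SLC6A20 at 5.15 and SLC6A9 at 4.89. Whether their calls hold in the spike-adjusted fit, with neighboring 5 put back or with the block was not examined.

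Of 4 lysosomal carriers 1 rose, a share near the 17.7% of all probe sets, and this was SLC38A7, which exports glutamine from lysosomes. Its values were 9.82, 7.39, 9.14, 8.22 and 7.38 on neighboring 1 to 5, against 7.08, 7.13, 7.51, 7.12 and 6.85 on healthy 1 to 5, so the neighboring glands were spread widely. It rose by 1.59 ± 0.41 (SE, adjusted p = 0.0164, limma), a call lost with all 10 arrays (1.25, adjusted p = 0.0636), with the replicate block (adjusted p = 0.0853) and in the spike-adjusted fit (0.77, adjusted p = 0.565). CTNS, the cystine exporter, differed by 0.42 (adjusted p = 0.0888). Among 4 proteins known to bind or regulate carriers, NEDD4L, a ubiquitin ligase, rose by 0.98, CD44, a cell surface receptor that stabilises SLC7A11 in human cancer cells, by 0.62 and LAPTM4B, a lysosomal protein that binds the heavy chain in human cells, by 0.38, and ARL6IP5 differed by -0.12. Only CD44 of these 4 rose with all 10 arrays, where 7.16% of all probe sets rose. NEDD4L did not pass with all 10 arrays (adjusted p = 0.0847), with the replicate block (adjusted p = 0.0602) or in the spike-adjusted fit (adjusted p = 0.10). CD44 did not pass with the replicate block (adjusted p = 0.0949) or in the spike-adjusted fit (adjusted p = 0.502). LAPTM4B, close to the threshold (adjusted p = 0.0479), lost its call under most alternatives, also without the filter (adjusted p = 0.0595) and in the spike-adjusted fit (adjusted p = 0.522).

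Of 12 genes of the response to amino acid deprivation 6 rose and 0 fell, with a median change of 0.45, where 17.7% of all probe sets rose and 12% fell. The rises numbered 5 with all 10 arrays, where 7.16% of all probe sets rose. SESN2, which rose, and CHAC1 are each counted in a second list below as well. SESN2 is also among the amino acid sensing genes, and CHAC1 among those of cystine and glutathione. TRIB3, a pseudokinase, had values of 8.60, 8.98, 8.49, 8.73 and 6.85 on neighboring 1 to 5, against 6.74, 6.80, 6.78, 6.44 and 7.49 on healthy 1 to 5, without overlap on the 8 arrays. It rose by 1.83 ± 0.20 (SE, adjusted p = 0.000346, limma). NUPR1 rose by 1.03 and CEBPG, a partner of ATF4, by 1.01, while CHAC1, a glutathione-degrading enzyme of the same response, differed by -0.33 and DDIT4 by 0.36, neither of which passed. The calls of NUPR1 (adjusted p = 0.0502) and CEBPG (adjusted p = 0.0662) were lost with neighboring 5 alone put back. NUPR1 also lost its call with the replicate block (adjusted p = 0.0603), and CEBPG in the spike-adjusted fit (1.29, adjusted p = 0.0549). Over the 21 alternatives TRIB3 lost its call in 1, and NUPR1 and CEBPG in 3 each.

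Genes that sense amino acids for the growth kinase complex mTORC1 gave 7 rises and 1 fall among 27, against 17.7% and 12% of all probe sets, with a median change of 0.098. There were 4 rises and 0 falls with all 10 arrays, where 7.16% of all probe sets rose and 774 of 14409 fell. SESN2, a leucine sensor, had values of 8.07, 8.04, 7.20, 8.19 and 6.66 on neighboring 1 to 5, against 6.37, 6.23, 6.83, 6.31 and 6.45 on healthy 1 to 5. It rose by 1.54 ± 0.19 (SE, adjusted p = 0.000581, limma), and its relative SESN1 rose by 1.94 (adjusted p = 0.00101), a call that the spike-adjusted fit lost (1.81, adjusted p = 0.0923). EIF4EBP1, the translation repressor that mTORC1 phosphorylates, rose by 0.90 and MIOS, a GATOR2 subunit, by 0.71. EIF4EBP1 did not pass in the spike-adjusted fit (1.06, adjusted p = 0.0707). TSC1 (0.36) and RRAGC (0.34) did not pass.

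Enzymes that use the carried amino acids were counted in 4 groups, beside 17.7% of all probe sets that rose and 12% that fell. For counts with all 10 arrays the background was 7.16% rising, and 774 of 14409 falling. For cystine and glutathione 3 of 8 rose and 1 fell, and with all 10 arrays 2 rose and 1 fell. GSS, glutathione synthetase, had values of 11.17, 11.22, 11.74, 11.92 and 9.34 on neighboring 1 to 5, against 9.25, 9.19, 8.93, 9.44 and 9.35 on healthy 1 to 5, a rise of 2.21 ± 0.17 (SE) or 4.62-fold (adjusted p = 5.30e-05, limma). As for SLC3A2, neighboring 5 lay among the healthy arrays. CBS, cystathionine beta-synthase, rose by 1.36 and GCLM, the modifier subunit of glutamate-cysteine ligase, by 0.63, whereas the aminopeptidase ANPEP fell by 0.39. GCLM did not pass with all 10 arrays (0.41, adjusted p = 0.116) or in the spike-adjusted fit (adjusted p = 0.183). ANPEP did not pass with the replicate block (adjusted p = 0.0791), in the spike-adjusted fit (adjusted p = 0.422), or without neighboring 4, healthy 1 or healthy 2 (adjusted p = 0.0504 to 0.0568). For the breakdown of branched-chain amino acids 4 of 9 rose and 0 fell (3 rose with all 10 arrays), with DBT, the transacylase of the keto acid dehydrogenase complex, up by 1.09, a call that the spike-adjusted fit lost (0.63, adjusted p = 0.231). For glutamine, glutamate and aspartate 1 gene of 6 rose, near the share of all probe sets, and this was GLUL, glutamine synthetase (1.17, adjusted p = 0.00105), and this call did not hold when neighboring 5 was returned to the fit (0.93, adjusted p = 0.0528) or in the spike-adjusted fit (0.93, adjusted p = 0.122). For arginine and ornithine 3 of 7 rose, led by ODC1, ornithine decarboxylase, at 0.96, and 1 fell, OAT, ornithine aminotransferase, by 0.39. Of these 7, 1 rose and 0 fell with all 10 arrays, and ODC1 did not pass (0.60, adjusted p = 0.108), nor did it in the spike-adjusted fit (0.72, adjusted p = 0.122). OAT lost its call with all 10 arrays (adjusted p = 0.0754), in the spike-adjusted fit (adjusted p = 0.208) and when any single array other than neighboring 1 was left out (adjusted p = 0.0535 to 0.0883).

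**Figure D4:**
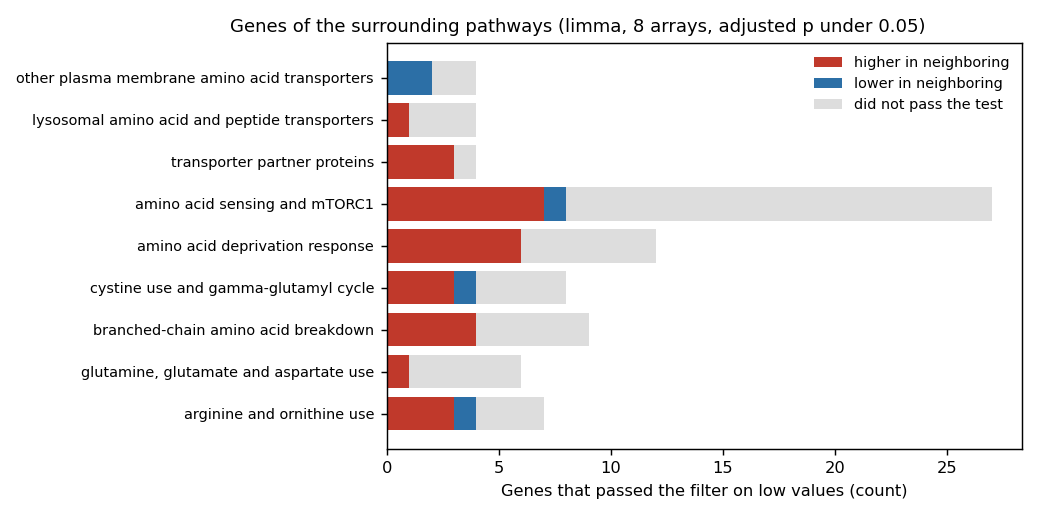
Number of genes (x axis) that were higher (red), lower (blue) or did not pass the test (grey) in neighboring against healthy glands on 8 arrays, for each list of genes around the carriers (y axis), among genes that passed the filter on low values. The deprivation response has 6 of 12 higher, and the other plasma membrane carriers have 0 of 4 higher and 2 lower.

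Markers of cell types were read beside the same shares of all probe sets, 17.7% higher and 12% lower. For counts with all 10 arrays the background was 7.16% higher, and 774 of 14409 lower. Of 10 markers of secretory epithelium, the milk-forming cells of the gland, 2 rose (KRT19 by 1.10 and EPCAM by 0.72), a share near that of all probe sets, and with all 10 arrays 1 did (KRT19 adjusted p = 0.0771). The mean over the list was 12.41 to 12.61 on neighboring 1 to 4 and 12.17 to 12.29 on the 4 healthy arrays, while the caseins and other milk genes CSN1S1, CSN1S2, CSN2, CSN3 and LALBA and the transcription factor ELF5 differed by -0.11 to 0.090, none of which passed. Myoepithelial markers had 4 of 6 lower (mean 8.51 to 8.87 in neighboring and 9.27 to 9.76 in healthy glands), T and B cell markers 3 of 6 (6.15 to 6.76 and 6.73 to 7.05), macrophage markers 3 of 8 (7.92 to 8.50 and 8.44 to 8.63) and fibroblast markers 3 of 7 with 1 higher (8.79 to 9.49 and 9.60 to 10.04). OXTR, among the 4 lower myoepithelial markers, passed the filter only through its level in healthy glands (mean 6.62, against 5.37 in neighboring glands). Without the filter 4 of 6 were lower too, where 2213 of 24016 probe sets fell. The macrophage markers were split, with a median change of 0.015. MSR1, CD14 and AIF1 fell by 0.67 to 1.90, while C1QA, C1QB, C1QC and CD68 were higher by 0.098 to 0.34 and did not pass. With all 10 arrays 3 myoepithelial, 0 T and B cell, 2 macrophage and 4 fibroblast markers were lower. FABP4, the 1 adipocyte marker tested, fell by 1.10, a call lost with all 10 arrays (adjusted p = 0.128), and 0 of 5 endothelial markers passed in either direction (mean 8.02 to 8.39 in neighboring and 8.0 to 8.48 in healthy glands). Without the filter 2 of 8 neutrophil markers were higher, S100A8 by 2.42 and S100A12 by 1.98, where 11.1% of all probe sets rose. S100A9, of the same list and above the filter, differed by 0.17 and did not pass (adjusted p = 0.258, limma without the filter). S100A8 and S100A12 passed the filter only through their level in neighboring glands, so no count over filtered markers is given. CXCR1, ELANE, ITGAM, MMP9 and MPO, under the filter, differed by -0.25 to 0.05. A set of 19 markers that rose or fell, up to 4 per type with the largest changes, was followed into the other fits. Of these, 12 kept their call with all 10 arrays and 5 in the spike-adjusted fit. Not all of the 19 are named here, and OXTR, S100A8 and S100A12 are among them. On neighboring 5, S100A8 was 2.64 above the healthy mean, whereas SLC3A2 was 0.076 above it. The part of these shifts in the changes of the carriers was not tested.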

How the data were processed

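Mammary tissue of 10 cows was hybridized to Affymetrix GeneChip Bovine Genome Arrays after TRIzol extraction and biotin labelling with MessageAmp II. The values that the authors deposited are on the log2 scale and come from RMA, whose version is not given in the sources used here. Values ran from 0.968 to 14.9, and 112 array control probe sets were left out. Arrays were grouped by their titles. The platform annotation gave a single symbol to 13292 of 24016 probe sets, more than one to 86 and no symbol to 10638, and only those with a single symbol were named. No build belongs to the values, so no coordinates are given.

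limma 3.58.1 in R 4.3.3 (lmFit, eBayes, Benjamini-Hochberg over all probe sets tested) was fitted on 8 arrays, as in the study's methods. Present calls, which the study filtered on, were not used here, and the lowest 40% of probe sets by mean over 10 arrays were left out instead. Fits without that filter served the members under it, an alternative chosen after seeing the data, as were the SLC3A2 and SLC7A5 pair and the block on all 10 arrays. SE and intervals are limma's, and those of pairs come from the pooled spread of per-array differences. The cows were separate animals, so the spread holds animal, tissue and technical variation. Each gene of a list was represented by its brightest kept probe set. Most genes named were drawn from all members, up to 4 genes per list with the largest changes that passed and up to 2 that did not, and the 3 genes nearest to SLC3A2. SLC6A20, SLC6A9 and the neutrophil markers under the filter were named after their values were seen. The procedure was tested on simulated arrays. Members and lists were chosen with earlier results of these data known. Alternatives covered the arrays entered, array weights, filter, scaling, variance model, thresholds, replicate block, hybridization controls as a covariate, second probe sets and leaving out each array. The number of arrays limits the precision.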

Additional observations from a re-analysis of the deposited data

Results flagged for a closer look

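In 4 of the 20 sets of 5 arrays (10 member probe sets in each group) the highest or lowest array stood apart from the others, with a gap to its nearest neighbour above 0.71 of the whole range, Dixon's limit for 5 arrays. Chance gives about 1 set in 20. SLC3A2 on neighboring 5, at 9.19, had a gap of 0.812 of the range below the next array at 10.82. SLC1A4 (Bt.28214.1.S1_at) on neighboring 5, at 8.75, had a gap of 0.738 below the next at 9.63. SLC3A2 on healthy 3, at 9.56, had a gap of 0.719 above the next healthy array at 9.19. SLC6A14 on healthy 3, at 3.39, had a gap of 0.834 below the next at 3.78. These are the same arrays that the study set aside, and neither entered the 8-array comparison.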

How the results depend on the processing

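The count of 3 member probe sets that rose became 1 with all 10 arrays, with neighboring 5 alone put back, under the stricter rule and with all 10 arrays and the replicate block. The spike-adjusted fit lost the dimmer SLC1A4 probe set from that count (adjusted p = 0.157, limma) and kept SLC3A2 and the brighter SLC1A4 probe set. It became 6 without the filter or with the lowest 20% left out (a mean of up to 4.38, which SLC6A14 exceeded only through the neighboring group), and was 3 to 4 when each array was left out in turn. The count of other plasma membrane carriers that fell was 2, and it became 1 with all 10 arrays, with healthy 3 put back, under the stricter rule and with all 10 arrays and the block. It became 0 with neighboring 5 put back and in the spike-adjusted fit, and 1 to 2 when each array was left out, being 1 without neighboring 2 or 4 or healthy 1, 2 or 5. Those that rose, 0, became 2 without the filter or with the lowest 20% left out, since more genes were tested. Same-numbered arrays did not pair (correlations of their deviations -0.19 to 0.17, 1 of 5 over 0.1). The replicate block left 3 members rising and 0 other carriers falling, and over all probe sets it called 850 higher, against 2548 without it. The spike-adjusted fit called 152 higher.

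SLC7A5 turned to 0.014 with array weights, 0.23 with the replicate block and 0.35 in the spike-adjusted fit, and spanned -0.24 to 0.16 when each array was left out. SLC43A2 turned to 0.037 with the replicate block. SLC7A7 turned to -0.012 with all 10 arrays, with or without the block, -0.039 with neighboring 5 put back, -0.032 with array weights, -0.14 with the replicate block and -0.34 in the spike-adjusted fit, and spanned -0.093 to 0.11 when each array was left out. CHAC1 turned to 0.016 with the replicate block and 0.057 in the spike-adjusted fit, GOT2 to -0.065 and ASS1 to 0.016 in the spike-adjusted fit. The pair SLC1A4 minus SLC1A1 turned to -0.16 with all 10 arrays and -0.15 with the second probe sets, and spanned -0.16 to 0.19 when each array was left out. SLC38A2 minus SLC1A5 turned to 0.22 with the second probe sets, and spanned -0.28 to -0.032. SLC1A4 minus SLC1A5 spanned 0.54 to 0.71. Both of these last pairs passed without neighboring 3 (adjusted exact permutation p = 0.0429, with differences of -0.28 and 0.54). Each was at the smallest p that this design allows, and neither could pass without the other. The cause of these turns was not tested.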
